A study of Homo sapiens with 12 samples.

Results

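The mRNA levels of 42 human genes of amino acid supply and use were examined, 22 amino acid carriers of the plasma and lysosomal membranes and 20 cytosolic aminoacyl tRNA synthetases. They were chosen by name from the 57152 genes with values in the deposited table, and 39 of the 42 (19 transporters and 20 synthetases) were abundant enough to be tested. The 12 bulk RNA sequencing libraries came from human cell lines and formed 4 groups of 3. LB amiodarone plus HPbCD were LB cells seeded with 10 mg/ml hydroxypropyl-beta-cyclodextrin (HPbCD, a ring-shaped sugar that binds cholesterol) and given 10 µM amiodarone (an antiarrhythmic drug that accumulates in lysosomes) after 24 h, for another 24 h. LB amiodarone were LB cells with the drug alone, LB DMSO were LB cells with the 0.1% DMSO vehicle, and A549 DMSO were A549 cells, a lung adenocarcinoma line, with vehicle. The labels name A549 as the source of the LB cells and do not say how LB was derived. All groups were grown in the same serum-containing medium. HPbCD without amiodarone and A549 cells with amiodarone were not analysed here, so HPbCD was measured only on top of the drug, and amiodarone only in LB.

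Cells take up amino acids through carriers of the plasma membrane, and export those released by proteolysis from the lysosome through carriers of its membrane. Aminoacyl tRNA synthetases join each amino acid to its tRNA, and uncharged tRNA activates the kinase GCN2 (EIF2AK4), which raises translation of the transcription factor ATF4. ATF4 is known to induce many genes for amino acid carriers and synthetases through the C/EBP-ATF composite element. Arginine sensing by SLC38A9 and cargo of SLC7A5 also feed the mTORC1 kinase at the lysosomal surface.

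Values are TPM (a gene's share of all transcripts, corrected for transcript length), which sum to nearly the same total in every library (999449 to 999632), and sequencing depth cannot be read from them. Differences are given as log2(TPM + 1) in the first-named group minus the second, a scale that understates changes of low genes. "Rose" and "fell" are used for adjusted p under 0.05 by limma over 13968 genes. Lack of overlap between groups only describes the genes named, and its share over all tested genes is not given. Within groups libraries correlated at 0.9846 to 0.9886 across genes, which are not independent replicates, and mitochondrially encoded transcripts took 5.38% to 9.19% of TPM. Nothing in the labels tells whether the replicates were separate cultures, and the p-values therefore cover the spread among these libraries alone, which may be technical. Each library sums over all its cells, and a change in a fraction of cells cannot be told apart from a change in all of them. The summed TPM of 5 epithelial markers was 2561 to 2956 in LB amiodarone plus HPbCD, 2748 to 3127 in LB amiodarone, 2894 to 3223 in LB DMSO and 7254 to 7791 in A549 DMSO. The sum of 8 alveolar type II markers was 1166 to 1579 over the 9 LB libraries and 22.3 to 22.7 in A549 DMSO, though the defining factor NKX2-1 stayed at or below 0.15 TPM throughout. SFTPB, SFTPC, SFTPD and ABCA3 made up nearly all of the LB sum. NAPSA, LAMP3 and SFTPA1 stayed at or below 3.88, 0.57 and 0.03 TPM in LB and A549 alike. Sums of leukocyte and endothelial markers stayed at or below 1.18 and 0.85 TPM, CD3E was listed at 0 in every library, and 5 fibroblast markers summed to 3.61 to 15.6 TPM.

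Both gene sets were well expressed. Transporters ranged far more widely in level than synthetases, with means over all 12 libraries of 0.182 to 626 TPM against 33.5 to 206 TPM. SLC3A2, the heavy chain that carries several light-chain transporters to the surface, averaged 626 TPM and its main partner SLC7A5, the large neutral amino acid exchanger, 536 TPM. Together they made up 55.0% to 70.1% of transporter TPM in each library. SLC1A5, a glutamine exchanger, followed at 226 TPM, and MARS, the methionyl tRNA synthetase, led the synthetases at 206 TPM. The ratio of the highest to the lowest of the 12 libraries had a median of 1.66 over the 19 transporters never listed at 0 and 1.33 over the 20 synthetases. Summed transporter TPM averaged 1948 ± 14.8 in LB amiodarone plus HPbCD, 1894 ± 62.6 in LB amiodarone, 1846 ± 75 in LB DMSO and 1932 ± 82.6 in A549 DMSO (SD, n = 3 each). Summed synthetase TPM averaged 2221 ± 35.6 in LB amiodarone plus HPbCD, 2369 ± 64 in LB amiodarone, 2304 ± 73.8 in LB DMSO and 2222 ± 20.5 in A549 DMSO (SD, n = 3 each). No test was made on these sums, which 2 genes dominate among the transporters.

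Fewer members passed the test with the treatments than between the lines, as did fewer of all tested genes. The members' changes with treatment were small. In LB DMSO against A549 DMSO, 8 of 19 tested transporters (5 rose, 3 fell) and 6 of 20 synthetases (5 rose, 1 fell) passed the test, where 32.4% of all tested genes did (14.2% rose, 18.2% fell). In LB amiodarone against LB DMSO, 3 transporters rose and none fell, while 2 synthetases rose and 2 fell, against a background of 8.62% (4.9% rose, 3.72% fell). Adding HPbCD to the drug gave 1 transporter and 2 synthetases that fell and none that rose, against 4.07% (2.71% rose, 1.36% fell). In LB amiodarone plus HPbCD against LB DMSO, 4 transporters rose and none fell, and 1 synthetase rose and 3 fell, against 17.9% (10.1% rose, 7.81% fell). At an unadjusted p under 0.05 the counts in these 4 comparisons, in the same order, were 8, 7, 4 and 4 transporters and 7, 11, 8 and 10 synthetases. Over all 13968 tested genes the counts were 5899, 3227, 2508 and 4450. The share of tested transporters past the test was 42.1%, 15.8%, 5.26% and 21.1%, and that of synthetases 30%, 20%, 10% and 20%, in the same order. Neither set thus stood far from the background in LB amiodarone plus HPbCD against LB DMSO. Nor did the synthetases between the lines, or the transporters when HPbCD was added to the drug. The other shares with treatment rest on few genes each. Without SLC1A3, which was near 0 in A549, 7 of 18 transporters passed between the lines (38.9%, 4 rose and 3 fell, median 0.06). The background also moved. With amiodarone it was 4.51% to 5.33% without any 1 LB DMSO library, 4.88% without LB amiodarone replicate 2 and 5.17% without LB amiodarone replicate 3. With HPbCD added it was 2.02% to 2.44% without any 1 LB amiodarone or LB amiodarone plus HPbCD library. Other scalings changed the balance of calls. Over all tested genes between the lines, median-of-ratios scaling gave 16.4% that rose and 15.5% that fell, and quantile normalization 17% and 15.6%. Between the lines, median-of-ratios scaling gave 5 transporters that rose and 1 that fell, and 6 synthetases that rose and 0 that fell. With amiodarone it gave 4 synthetases that rose and 2 that fell. In LB amiodarone plus HPbCD against LB DMSO it gave 3 synthetases that rose and 2 that fell, quantile normalization 1 and 5, and removal of mitochondrially encoded genes 0 and 4.

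With the drug, the median of the transporters lay above that of the synthetases. With amiodarone the median log2 difference was 0.16 over tested transporters, 16 of 19 being above 0, and 0.04 over synthetases, 11 of 20 being above 0, with -0.0027 over all tested genes. When HPbCD was added to amiodarone, the medians were -0.08 for transporters (8 of 19 above 0) and -0.10 for synthetases (5 of 20 above 0), with -0.01 over all genes. Against LB DMSO, LB amiodarone plus HPbCD gave 0.05 for transporters (13 of 19 above 0) and -0.08 for synthetases (5 of 20 above 0), with -0.02 over all genes. Between the lines the medians were 0.07 and 0.09, with -0.04 over all genes. Comparisons that share a group (LB DMSO or LB amiodarone) are not independent, and these medians carry no test. The medians of both sets kept their signs under the 3 other scalings, while those over all genes lay near 0 and did not all keep theirs. The synthetase median with amiodarone was -0.01 without LB DMSO replicate 2, 0.00 without LB amiodarone replicate 3 and 0.08 without LB DMSO replicate 3. Every other median of the sets kept its sign with any 1 library left out, but 3 of the transporters' moved by over 1.5 times. Between the lines that median was 0.04 without A549 DMSO replicate 2. With HPbCD added it was -0.04 without LB amiodarone replicate 3. For LB amiodarone plus HPbCD against LB DMSO it was 0.02 without LB DMSO replicate 2, and 0.09 or 0.03 when replicate 2 or 3 of LB amiodarone plus HPbCD was dropped.

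**Figure D1:**
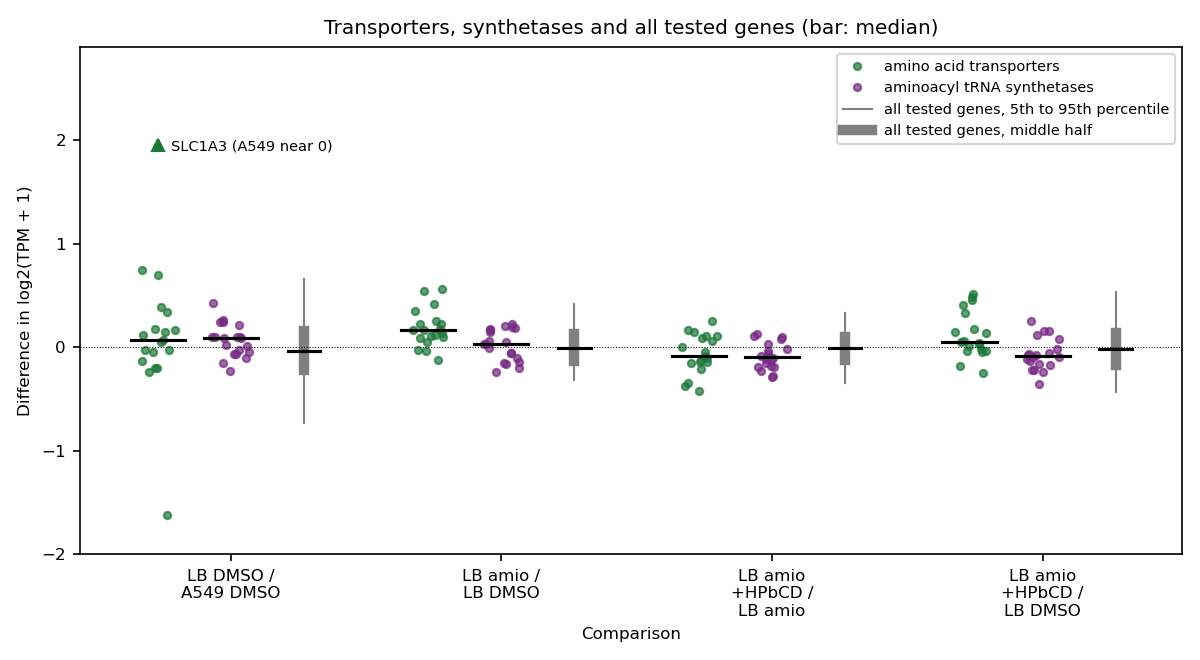
Each point is the log2(TPM + 1) difference of 1 transporter (green, 19 tested) or 1 synthetase (purple, 20 tested) in the comparison named on the horizontal axis, "amio" being amiodarone. Black bars are medians, and grey bars and lines span the middle 50% and the 5th to 95th percentile of all 13968 tested genes. The triangle marks SLC1A3 in LB DMSO against A549 DMSO, for which no size is given because it was near 0 in A549. With amiodarone the transporter median is 0.16 and the synthetase median 0.04.

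Both carriers of acidic amino acids were higher in LB. SLC1A3 (chromosome 5, 36606355 to 36688334, plus strand), a sodium-coupled carrier of glutamate and aspartate, had 29.03, 24.7 and 34.5 TPM in LB DMSO, against 0, 0.02 and 0 TPM in A549 DMSO. It was thus present in all LB libraries and listed at or near 0 in A549. It passed the filter on low values only through its LB libraries, and no fold or test is given for it between the lines. SLC1A1 (chromosome 9, 4490444 to 4587469, plus strand), the other acidic amino acid carrier of the set, had 3.48, 3.68 and 3.77 TPM in LB DMSO, against 1.56, 2 and 1.76 TPM in A549 DMSO. All LB values lay above all A549 values (log2 difference 0.75 ± 0.128 SE, limma adjusted p = 0.000709).

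SLC7A7, the light chain that exports cationic amino acids in exchange for neutral ones, went the other way. The gene (chromosome 14, 22773222 to 22829820, minus strand) had 4.50, 4.30 and 3.23 TPM in LB DMSO, against 17.8, 8.79 and 18.4 TPM in A549 DMSO. A549 replicate 2 was lower than the other A549 libraries, yet the groups did not overlap and SLC7A7 fell in LB (log2 difference -1.62 ± 0.251 SE, limma adjusted p = 0.000342). SLC7A2 (chromosome 8, 17497088 to 17570573, plus strand), a cationic amino acid carrier, rose in LB. Its libraries had 5.27, 4.91 and 5.04 TPM in LB DMSO, against 3.12, 1.81 and 3.5 TPM in A549 DMSO. The A549 values spread more widely but stayed below those of LB (log2 difference 0.70 ± 0.155 SE, limma adjusted p = 0.00409). SLC7A1, the widely expressed cationic carrier, was not past the test, at 21.1 ± 1.149 TPM in LB DMSO and 21.9 ± 1.34 TPM in A549 DMSO (log2 difference -0.05, limma adjusted p = 0.65, 95% interval -0.21 to 0.11).

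Among neutral amino acid carriers, SLC38A2 (chromosome 12, 46358189 to 46372867, minus strand), the sodium-coupled carrier known to be induced by amino acid starvation, had 193, 174 and 193 TPM in LB DMSO, against 159, 127 and 142 TPM in A549 DMSO. The groups did not overlap and SLC38A2 rose (log2 difference 0.39 ± 0.0736 SE, limma adjusted p = 0.0015). SLC3A2 (chromosome 11, 62856102 to 62888875, plus strand) had 640.2, 591 and 580.2 TPM in LB DMSO, against 706, 733 and 644 TPM in A549 DMSO. SLC7A5 (chromosome 16, 87830023 to 87869488, minus strand) had 557, 519 and 508 TPM in LB DMSO, against 588, 677 and 562 TPM in A549 DMSO. LB values were the lower ones for both genes, with no overlap, and both fell by the test (SLC3A2 log2 difference -0.20 ± 0.0558 SE, limma adjusted p = 0.0154, SLC7A5 log2 difference -0.20 ± 0.0649 SE, limma adjusted p = 0.0316). The SLC3A2 call was lost without A549 DMSO replicate 2 or LB DMSO replicates 2 or 3 (adjusted p 0.0579 to 0.0633), and with median-of-ratios scaling and with the 2 groups fitted alone. The SLC7A5 call was lost without A549 DMSO replicate 2 or LB DMSO replicates 2 or 3 (adjusted p 0.093 to 0.107), and with no filter on low values, with median-of-ratios scaling, with quantile normalization, without variance trend and with the 2 groups fitted alone. The SLC7A5 value is also less certain because its pseudogenes SLC7A5P1 and SLC7A5P2, listed at 0.87 to 5.03 and 0.03 to 1.86 TPM, may share reads with it. SLC36A1, a proton-coupled carrier of small amino acids found on lysosomes, rose by a log2 difference of 0.34 (6.27 ± 0.452 TPM in LB DMSO and 4.78 ± 0.824 TPM in A549 DMSO, limma adjusted p = 0.0335). That call was lost without A549 DMSO replicate 1 or LB DMSO replicates 1, 2 or 3 (adjusted p 0.0514 to 0.12), and with no filter on low values and with the 2 groups fitted alone.

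The remaining tested transporters were not past the test between the lines. SLC1A5 had 228, 211 and 237 TPM in LB DMSO, against 214, 216 and 222 TPM in A549 DMSO, with overlapping groups (log2 difference 0.05, limma adjusted p = 0.466). SLC7A11, the cystine-glutamate antiporter that supplies cysteine for glutathione, had 33.4, 30.5 and 33.0 TPM in LB DMSO, against 30.1, 26.5 and 32.5 TPM in A549 DMSO. Its groups overlapped as well (log2 difference 0.12, limma adjusted p = 0.402). SLC38A9, the arginine sensor of the lysosomal membrane, had 13.6, 11.7 and 10.6 TPM in LB DMSO, against 16.1, 11.7 and 15.2 TPM in A549 DMSO (log2 difference -0.24, limma adjusted p = 0.194). The others (SLC1A4, SLC6A9, SLC7A1, SLC7A6, SLC38A1, SLC38A7, SLC38A10 and SLC43A1) had log2 differences of -0.13 to 0.18.

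**Figure D2:**
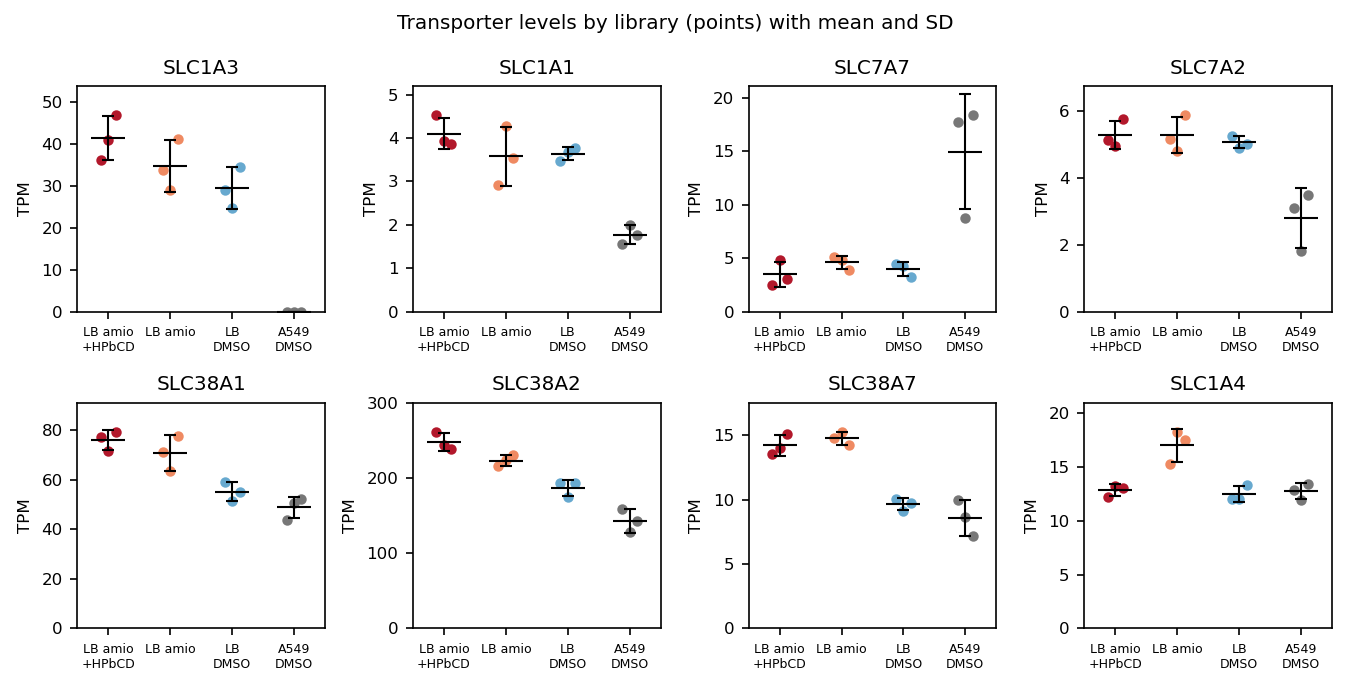
TPM of 8 transporters in each library (points), with group means (long bars) and SD (error bars), n = 3 per group, for LB amiodarone plus HPbCD, LB amiodarone, LB DMSO and A549 DMSO from left to right, "amio" being amiodarone. SLC1A3 lies at 24.7 TPM or above in all LB libraries and at 0.02 TPM or below in A549, SLC7A7 is highest in A549, and SLC1A3, SLC38A1, SLC38A2, SLC38A7 and SLC1A4 passed the test in at least 1 treatment comparison.

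Synthetases differed less between the lines, with log2 differences of -0.23 to 0.43. SARS (seryl) had 97.2, 91.4 and 96.1 TPM in LB DMSO, against 79.5, 77.6 and 83.5 TPM in A549 DMSO. VARS (valyl) had 72.4, 70.7 and 72.3 TPM in LB DMSO, against 60.8, 62.2 and 58.5 TPM in A549 DMSO. YARS (tyrosyl) had 112, 112 and 122 TPM in LB DMSO, against 101, 102 and 94.8 TPM in A549 DMSO. LB lay above A549 without overlap for all 3, and each rose (SARS log2 difference 0.24 ± 0.05 SE, limma adjusted p = 0.00279, VARS log2 difference 0.24 ± 0.0562 SE, limma adjusted p = 0.00539, YARS log2 difference 0.21 ± 0.0548 SE, limma adjusted p = 0.00976). EPRS, a fused enzyme that charges both glutamate and proline tRNA, had 81.8, 75.05 and 88.8 TPM in LB DMSO, against 65.1, 69.1 and 69.1 TPM in A549 DMSO. It rose (log2 difference 0.27 ± 0.0742 SE, limma adjusted p = 0.0155), a call lost without A549 DMSO replicate 1 or LB DMSO replicate 3 (adjusted p 0.0541 to 0.0689). CARS (cysteinyl) averaged 76.8 ± 13.4 TPM in LB DMSO and 56.3 ± 3.49 TPM in A549 DMSO and rose (log2 difference 0.43, limma adjusted p = 0.0349), a call lost without A549 DMSO replicates 2 or 3 or LB DMSO replicates 2 or 3 (adjusted p 0.0742 to 0.138), and with no filter on low values and without variance trend. DARS (aspartyl) averaged 44.0 ± 4.57 TPM in LB DMSO and 51.7 ± 2.25 TPM in A549 DMSO and fell (log2 difference -0.23, limma adjusted p = 0.0388), a call lost without A549 DMSO replicates 1, 2 or 3, LB DMSO replicates 1 or 2 or LB amiodarone plus HPbCD replicate 3 (adjusted p 0.0503 to 0.157), and with no filter on low values, with median-of-ratios scaling, with quantile normalization, without variance trend and with the 2 groups fitted alone.

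Of the 8 synthetases that form the multisynthetase complex (EPRS, IARS, LARS, QARS, MARS, KARS, RARS and DARS), EPRS rose and DARS fell. Of the 12 outside it, CARS, SARS, VARS and YARS rose. AARS (alanyl) had 172, 155 and 168 TPM in LB DMSO, against 162, 146 and 159 TPM in A549 DMSO. GARS (glycyl) had 137, 123 and 143 TPM in LB DMSO, against 119.9, 134 and 123 TPM in A549 DMSO. WARS (tryptophanyl), also known as an interferon-induced gene, had 144, 138 and 150.5 TPM in LB DMSO, against 125, 140.5 and 138 TPM in A549 DMSO. These 3 overlapped between the lines and were not past the test (limma adjusted p = 0.279, 0.267 and 0.168). QARS (glutaminyl) had 122, 143 and 137 TPM in LB DMSO, against 143, 144 and 159 TPM in A549 DMSO, with no overlap but adjusted p = 0.118 by limma. The part of the marker differences between the lines in these results was not tested.

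3 carriers of neutral amino acids rose with amiodarone. SLC38A7 (chromosome 16, 58665109 to 58685104, minus strand), which exports glutamine from the lysosome, had 14.8, 15.3 and 14.2 TPM in LB amiodarone, against 10.1, 9.16 and 9.72 TPM in LB DMSO. All drug-treated libraries lay well above the vehicle libraries (log2 difference 0.57 ± 0.1 SE, limma adjusted p = 0.00447). SLC1A4 (chromosome 2, 64988477 to 65023865, plus strand), an exchanger of alanine, serine and cysteine, had 15.3, 18.3 and 17.5 TPM in LB amiodarone, against 12.1, 12.03 and 13.3 TPM in LB DMSO. It did not overlap between the groups and rose (log2 difference 0.42 ± 0.0822 SE, limma adjusted p = 0.00834). SLC38A1 (chromosome 12, 46183063 to 46270017, minus strand), a sodium-coupled glutamine carrier, had 71.4, 63.3 and 77.7 TPM in LB amiodarone, against 59.2, 51.4 and 55.1 TPM in LB DMSO. It rose too (log2 difference 0.35 ± 0.0865 SE, limma adjusted p = 0.0281), but the call was lost without LB DMSO replicates 2 or 3 or LB amiodarone replicates 1 or 3 (adjusted p 0.0755 to 0.104), and with no filter on low values, without variance trend and with the 2 groups fitted alone.

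SLC38A2 had 215, 223 and 230.4 TPM in LB amiodarone, against 193, 174 and 193 TPM in LB DMSO. Its groups did not overlap, but it missed the threshold narrowly (log2 difference 0.26 ± 0.0736 SE, limma adjusted p = 0.0502). SLC43A1, a facilitative carrier of branched-chain amino acids, averaged 4.02 ± 0.515 TPM in LB amiodarone and 2.43 ± 0.203 TPM in LB DMSO (log2 difference 0.54, limma adjusted p = 0.123). SLC1A5 had 252, 233 and 247 TPM in LB amiodarone, against 228, 211 and 237 TPM in LB DMSO (log2 difference 0.12, limma adjusted p = 0.161). SLC3A2 had 626, 577 and 568 TPM in LB amiodarone, against 640.2, 591 and 580.2 TPM in LB DMSO (log2 difference -0.03, limma adjusted p = 0.792, 95% interval -0.15 to 0.09). SLC7A5 had 513, 473 and 467 TPM in LB amiodarone, against 557, 519 and 508 TPM in LB DMSO (log2 difference -0.12, limma adjusted p = 0.28, 95% interval -0.27 to 0.02). Neither of these 2 most abundant transporters was past the test. SLC7A11 had 36.7, 30.6 and 40.4 TPM in LB amiodarone, against 33.4, 30.5 and 33.0 TPM in LB DMSO, and overlapped (log2 difference 0.14, limma adjusted p = 0.452). SLC38A9 had 12.8, 13.7 and 16.1 TPM in LB amiodarone, against 13.6, 11.7 and 10.6 TPM in LB DMSO, and also overlapped (log2 difference 0.23, limma adjusted p = 0.329). The other tested transporters, SLC1A1, SLC1A3, SLC6A9, SLC7A1, SLC7A2, SLC7A6, SLC7A7, SLC36A1 and SLC38A10, had log2 differences of -0.03 to 0.23.

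Synthetases moved in both directions with amiodarone. SARS had 113, 106 and 115 TPM in LB amiodarone, against 97.2, 91.4 and 96.1 TPM in LB DMSO. NARS (asparaginyl) had 195, 203 and 198 TPM in LB amiodarone, against 170.0, 176 and 175 TPM in LB DMSO. Both rose without overlap (SARS log2 difference 0.23 ± 0.05 SE, limma adjusted p = 0.0159, NARS log2 difference 0.20 ± 0.0524 SE, limma adjusted p = 0.0391). VARS had 61.8, 58.4 and 61.9 TPM in LB amiodarone, against 72.4, 70.7 and 72.3 TPM in LB DMSO. HARS (histidyl) had 74.8, 79.4 and 81.2 TPM in LB amiodarone, against 91.2, 92.5 and 86.6 TPM in LB DMSO. Both fell, again without overlap (VARS log2 difference -0.24 ± 0.0562 SE, limma adjusted p = 0.0222, HARS log2 difference -0.20 ± 0.0476 SE, limma adjusted p = 0.0254). Each of these 4 calls was lost when any 1 of several libraries was left out, though no difference changed sign. Over the settings tried, log2 differences were 0.20 to 0.26 for SARS and 0.18 to 0.21 for NARS. They were -0.25 to -0.21 for VARS and -0.22 to -0.16 for HARS. SARS lost its call without LB DMSO replicate 2 or LB amiodarone replicates 1 or 3 (adjusted p 0.0559 to 0.0627). NARS lost its call without LB DMSO replicates 1, 2 or 3, LB amiodarone replicates 1, 2 or 3 or LB amiodarone plus HPbCD replicate 1 (adjusted p 0.0535 to 0.124), and with no filter on low values, with mitochondrially encoded genes removed and without variance trend. VARS lost its call without LB DMSO replicates 1, 2 or 3 or LB amiodarone replicate 2 (adjusted p 0.0516 to 0.0829). HARS lost its call without LB DMSO replicates 1 or 2 or LB amiodarone replicates 1 or 2 (adjusted p 0.0573 to 0.0904), and without variance trend and with the 2 groups fitted alone. All 4 are among the 12 enzymes outside the multisynthetase complex. None of its 8 members passed the test, where 8.62% of all tested genes did. With so few genes this does not set the complex apart, and IARS, 1 of the 8, missed narrowly (limma adjusted p = 0.0512). Of these 8, 2 had an unadjusted p under 0.05, as did 3227 of all 13968 tested genes.

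Several synthetases lay above vehicle in every drug-treated library without passing the adjusted threshold. KARS, RARS, FARSA and FARSB lay below vehicle in every such library, also without passing it. How many of all tested genes separated in this way is not given, so the pattern is not a result about synthetases. IARS (isoleucyl; chromosome 9, 92210207 to 92293756, minus strand) had 141, 140.1 and 151 TPM in LB amiodarone, against 132, 120.5 and 130.3 TPM in LB DMSO (log2 difference 0.17 ± 0.0501 SE, limma adjusted p = 0.0512). GARS had 159.9, 151 and 155 TPM in LB amiodarone, against 137, 123 and 143 TPM in LB DMSO (log2 difference 0.21 ± 0.0607 SE, limma adjusted p = 0.0543). AARS (chromosome 16, 70252295 to 70289543, minus strand) had 188, 177 and 199 TPM in LB amiodarone, against 172, 155 and 168 TPM in LB DMSO (log2 difference 0.19 ± 0.0578 SE, limma adjusted p = 0.0697). Each of these 3 groups of drug libraries was the higher one with no overlap. YARS averaged 129.5 ± 6.88 TPM in LB amiodarone and 115 ± 6.06 TPM in LB DMSO (limma adjusted p = 0.0806). For 3 further enzymes the drug and vehicle libraries overlapped. EPRS had 81.3, 80.1 and 94.0 TPM in LB amiodarone, against 81.8, 75.05 and 88.8 TPM in LB DMSO, and overlapped (log2 difference 0.05, limma adjusted p = 0.728). QARS had 135, 130.2 and 119 TPM in LB amiodarone, against 122, 143 and 137 TPM in LB DMSO, and overlapped (log2 difference -0.06, limma adjusted p = 0.698). WARS had 148, 150.01 and 145 TPM in LB amiodarone, against 144, 138 and 150.5 TPM in LB DMSO, and overlapped as well (log2 difference 0.03, limma adjusted p = 0.758). The other 9 synthetases (LARS, MARS, KARS, RARS, DARS, CARS, FARSA, FARSB and TARS) had log2 differences of -0.16 to 0.15.

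**Figure D3:**
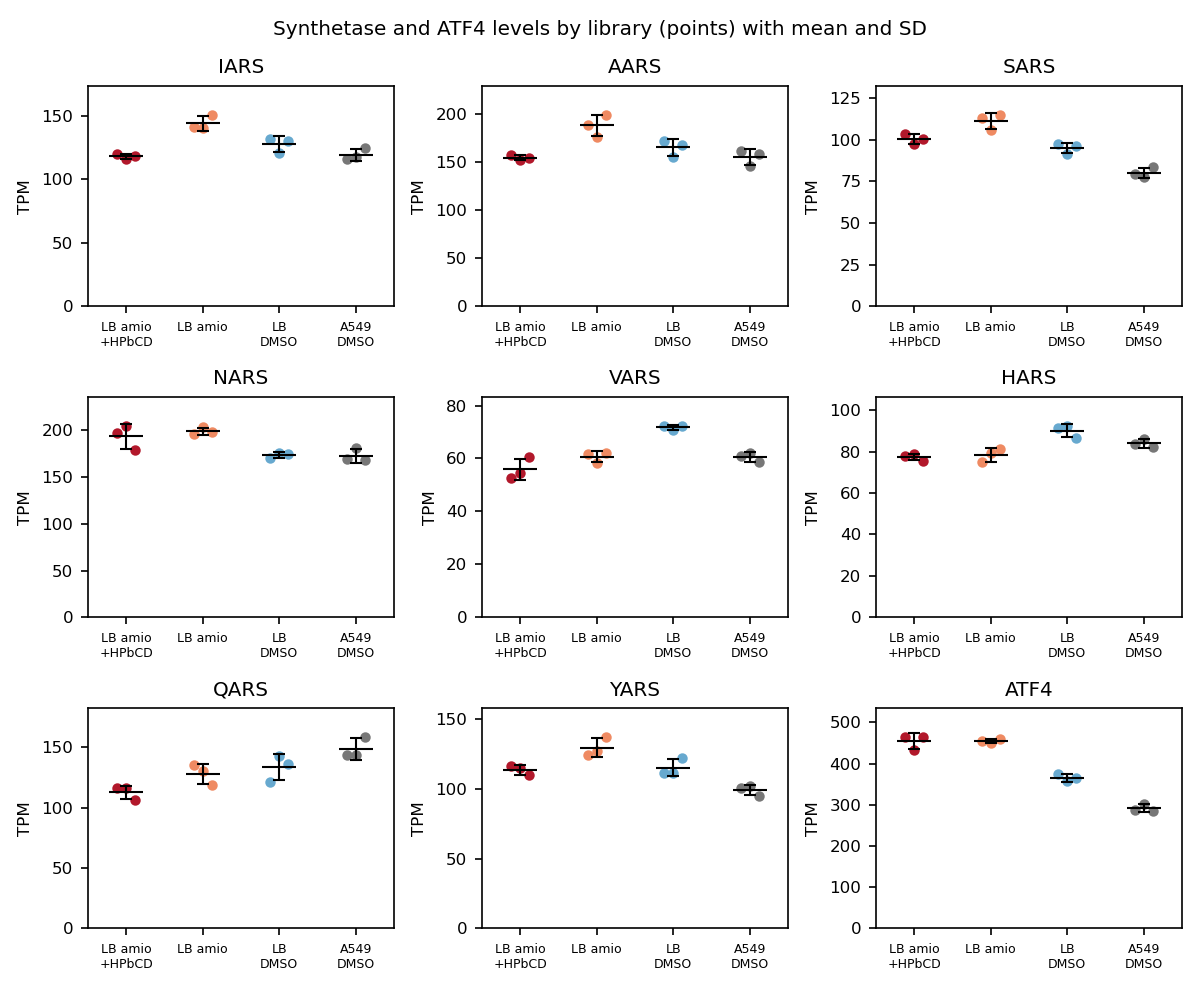
TPM of 8 synthetases and of ATF4 in each library (points), with group means (long bars) and SD (error bars), n = 3 per group, for LB amiodarone plus HPbCD, LB amiodarone, LB DMSO and A549 DMSO from left to right, "amio" being amiodarone. IARS, AARS, SARS and YARS are highest with amiodarone alone, VARS and HARS are highest in LB DMSO, and ATF4 lies at 432.5 TPM or above in all 6 amiodarone-treated libraries.

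ATF4 mRNA (the transcription factor of the amino acid response) was higher in both amiodarone-treated groups than in vehicle. It had 465, 432.5 and 465 TPM in LB amiodarone plus HPbCD, 455, 449.8 and 458 TPM in LB amiodarone, 375, 357 and 364 TPM in LB DMSO and 288, 302 and 284 TPM in A549 DMSO. The 6 drug-treated libraries lay above all LB DMSO libraries, and these above all A549 libraries. ATF4 rose with amiodarone (log2 difference 0.32 ± 0.0416 SE, limma adjusted p = 0.000591), rose in LB DMSO against A549 DMSO (log2 difference 0.33 ± 0.0416 SE, limma adjusted p = 7.7e-05), and was not past the test when HPbCD was added (95% interval -0.09 to 0.09, log2 difference -0.0019, limma adjusted p = 0.989). ATF4 is controlled mainly in translation, which mRNA levels do not show.

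The promoters were searched for the element through which ATF4 is known to act, TGATGNAA on either strand. RefSeq windows (GRCh38.p14, 250 bases before to 50 after a start) were found for 35 of the 42 members, 19 transporters and 16 synthetases. SLC7A11, SLC7A2, SLC43A3, LARS, DARS, VARS and YARS had no entry. The element was present in a window of 7 of 16 synthetases (IARS, MARS, AARS, CARS, GARS, NARS and TARS) and of 6 of 19 transporters (SLC1A3, SLC1A4, SLC1A5, SLC3A2, SLC7A1 and SLC38A1). Counted by window, that is 33.3% of 21 synthetase windows and 16.2% of 37 transporter windows, against 3.62% of 35116 windows of all genes. The E-box CACGTG, a palindrome bound by MYC, TFEB and other factors, was in 4.76% of synthetase windows and 21.6% of transporter windows, against 7.26% of all windows. Windows of 1 gene can overlap, and a match of letters is not a bound site. Windows are shown of the 6 members with the element that passed the test in a treatment comparison. SLC38A7, SLC38A2, SARS, HARS and QARS also passed in a treatment comparison, and their windows lack the element. VARS and DARS passed too and had no window. IARS, AARS and SLC1A4 fell when HPbCD was added, SLC1A4, NARS and SLC38A1 rose with amiodarone, and SLC38A1 and SLC1A3 rose with the combined treatment against vehicle. The windows shown run from 5′ to 3′ along the gene, with the element in capitals, and were picked after the values of their members were seen.
IARS (chr9:92293648-92293947, minus strand): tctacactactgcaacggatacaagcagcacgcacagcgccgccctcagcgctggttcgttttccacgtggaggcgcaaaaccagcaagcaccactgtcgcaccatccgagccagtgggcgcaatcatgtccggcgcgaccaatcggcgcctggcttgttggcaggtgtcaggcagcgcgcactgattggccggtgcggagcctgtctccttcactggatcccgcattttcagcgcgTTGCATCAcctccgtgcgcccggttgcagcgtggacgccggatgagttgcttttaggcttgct
AARS (chr16:70289457-70289756, minus strand): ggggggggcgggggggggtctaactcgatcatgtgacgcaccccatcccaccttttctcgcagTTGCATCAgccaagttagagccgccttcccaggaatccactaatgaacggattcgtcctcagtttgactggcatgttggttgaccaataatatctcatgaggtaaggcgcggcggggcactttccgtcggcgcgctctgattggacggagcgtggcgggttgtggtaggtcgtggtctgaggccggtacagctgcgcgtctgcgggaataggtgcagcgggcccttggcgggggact
NARS (chr18:57621787-57622086, minus strand): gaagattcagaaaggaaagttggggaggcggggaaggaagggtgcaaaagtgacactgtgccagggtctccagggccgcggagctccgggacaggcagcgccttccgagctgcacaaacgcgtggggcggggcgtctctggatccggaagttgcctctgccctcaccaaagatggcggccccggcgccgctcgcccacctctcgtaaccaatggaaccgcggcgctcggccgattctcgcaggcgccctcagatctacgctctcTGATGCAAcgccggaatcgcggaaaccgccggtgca
SLC1A4 (chr2:64989149-64989448, plus strand): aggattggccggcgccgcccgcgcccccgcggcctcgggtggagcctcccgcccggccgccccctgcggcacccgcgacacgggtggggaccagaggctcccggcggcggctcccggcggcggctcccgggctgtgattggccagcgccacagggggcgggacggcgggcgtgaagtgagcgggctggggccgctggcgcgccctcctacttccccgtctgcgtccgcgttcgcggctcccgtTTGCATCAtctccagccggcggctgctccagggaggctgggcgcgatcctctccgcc
SLC38A1 (chr12:46266467-46266766, minus strand): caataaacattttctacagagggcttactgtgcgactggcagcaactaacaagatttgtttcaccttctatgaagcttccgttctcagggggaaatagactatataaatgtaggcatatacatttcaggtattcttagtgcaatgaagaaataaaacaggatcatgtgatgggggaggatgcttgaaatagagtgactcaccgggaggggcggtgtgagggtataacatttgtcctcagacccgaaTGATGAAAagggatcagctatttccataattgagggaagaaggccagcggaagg
SLC1A3 (chr5:36596338-36596637, plus strand): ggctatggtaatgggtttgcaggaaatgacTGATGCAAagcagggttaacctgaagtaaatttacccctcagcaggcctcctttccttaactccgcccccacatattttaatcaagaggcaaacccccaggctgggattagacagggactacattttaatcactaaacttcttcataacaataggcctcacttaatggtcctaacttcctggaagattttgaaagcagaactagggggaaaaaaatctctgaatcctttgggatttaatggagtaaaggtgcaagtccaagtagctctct

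The element begins at position -13 from the start in IARS, -187 in AARS and -7 in SLC1A4, each time as TTGCATCA. It begins at 15 in NARS and -220 in SLC1A3 as TGATGCAA, the same letters read on the opposite strand, and at -4 in SLC38A1 as TGATGAAA. SLC1A4 and SLC38A1 each held the element in 1 of 2 windows, and SLC1A3 in 1 of 3. That SLC1A3 window ends at 36596637, upstream of the gene position used here, which begins at 36606355. With amiodarone, the 7 synthetases with the element had a median log2 difference of 0.17 and 5 lay above 0, while the 9 without it had a median of -0.10 and 3 above 0. When HPbCD was added, the 7 with it had a median of -0.10 and all 7 lay below 0, and the 9 without it had a median of -0.02 and 5 below 0. Among transporters the medians with amiodarone were 0.19 for the 6 with the element and 0.17 for the 11 tested without it. With HPbCD added they were -0.02 with it and -0.08 without it. In LB amiodarone plus HPbCD against LB DMSO, the synthetase medians were -0.09 with the element and -0.08 without it. Those of the transporters were 0.05 and 0.13. Between the lines the medians with and without it were 0.09 and 0.02 for synthetases, and 0.01 and 0.07 for transporters. These medians carry no test, and comparisons that share a group are not independent.

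3 members fell when HPbCD was added to amiodarone, IARS, AARS and SLC1A4. IARS had 119.6, 116 and 118 TPM in LB amiodarone plus HPbCD, against 141, 140.1 and 151 TPM in LB amiodarone. Every HPbCD library lay below every drug-alone library and below those of LB DMSO as well (log2 difference -0.29 ± 0.0501 SE, limma adjusted p = 0.00755). That call held in every setting tried, with adjusted p of 0.0382 at most. AARS had 158, 152 and 154 TPM in LB amiodarone plus HPbCD, against 188, 177 and 199 TPM in LB amiodarone. The groups did not overlap and AARS fell (log2 difference -0.28 ± 0.0578 SE, limma adjusted p = 0.0192), a call lost without LB amiodarone replicates 1 or 3 or LB amiodarone plus HPbCD replicates 1, 2 or 3 (adjusted p 0.0533 to 0.0803), and without variance trend. SLC1A4 had 12.3, 13.3 and 13.0 TPM in LB amiodarone plus HPbCD, against 15.3, 18.3 and 17.5 TPM in LB amiodarone. It fell to about its LB DMSO level (log2 difference -0.38 ± 0.0822 SE, limma adjusted p = 0.024), a call lost without LB amiodarone replicates 2 or 3 or LB amiodarone plus HPbCD replicates 1, 2 or 3 (adjusted p 0.0555 to 0.1), and with the 2 groups fitted alone. For LB amiodarone plus HPbCD against LB DMSO, SLC1A4 gave a log2 difference of 0.04 (95% interval -0.14 to 0.22) and limma adjusted p = 0.77.

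No transporter or synthetase rose when HPbCD was added, though 13 of the 39 tested lay above 0. SLC6A9, a glycine carrier, averaged 5.63 ± 0.678 TPM in LB amiodarone plus HPbCD and 7.85 ± 0.637 TPM in LB amiodarone without overlap (log2 difference -0.42, limma adjusted p = 0.0635). SLC38A7 had 13.6, 13.99 and 15.1 TPM in LB amiodarone plus HPbCD, against 14.8, 15.3 and 14.2 TPM in LB amiodarone, and overlapped (log2 difference -0.05, limma adjusted p = 0.851, 95% interval -0.27 to 0.17). SLC38A2 had 261, 243 and 238 TPM in LB amiodarone plus HPbCD, against 215, 223 and 230.4 TPM in LB amiodarone. It was higher in every HPbCD library but not past the test (log2 difference 0.15, limma adjusted p = 0.318). SLC7A5 had 531, 517 and 519 TPM in LB amiodarone plus HPbCD, against 513, 473 and 467 TPM in LB amiodarone (log2 difference 0.11, limma adjusted p = 0.415). SLC3A2 had 614, 616 and 619 TPM in LB amiodarone plus HPbCD, against 626, 577 and 568 TPM in LB amiodarone (log2 difference 0.06, limma adjusted p = 0.613). Neither chain of this exchanger passed the test. SLC1A5 had 220.3, 218 and 220.3 TPM in LB amiodarone plus HPbCD, against 252, 233 and 247 TPM in LB amiodarone (log2 difference -0.15, limma adjusted p = 0.105). SLC7A11 had 33.8, 30.1 and 34.0 TPM in LB amiodarone plus HPbCD, against 36.7, 30.6 and 40.4 TPM in LB amiodarone (log2 difference -0.13, limma adjusted p = 0.573). SLC1A5 lay lower without overlap and SLC7A11 overlapped. SLC38A9 had 14.2, 13.98 and 11.8 TPM in LB amiodarone plus HPbCD, against 12.8, 13.7 and 16.1 TPM in LB amiodarone, and overlapped (log2 difference -0.08, limma adjusted p = 0.802). The other tested transporters had log2 differences of -0.35 to 0.26.

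Among the other synthetases, 15 of the 20 in all had a log2 difference below 0. EPRS had 73.2, 75.2 and 68.6 TPM in LB amiodarone plus HPbCD, against 81.3, 80.1 and 94.0 TPM in LB amiodarone (log2 difference -0.23, limma adjusted p = 0.122). GARS had 142, 145 and 151 TPM in LB amiodarone plus HPbCD, against 159.9, 151 and 155 TPM in LB amiodarone (log2 difference -0.09, limma adjusted p = 0.484). QARS had 116, 116 and 107 TPM in LB amiodarone plus HPbCD, against 135, 130.2 and 119 TPM in LB amiodarone (log2 difference -0.18, limma adjusted p = 0.199). In these 3 the HPbCD libraries were the lower ones without overlap, and none passed the adjusted threshold. The share of all tested genes that separated so is not given. WARS had 168, 161 and 155 TPM in LB amiodarone plus HPbCD, against 148, 150.01 and 145 TPM in LB amiodarone. Here the HPbCD libraries lay higher without overlap, short of the threshold (log2 difference 0.13, limma adjusted p = 0.229).

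Against vehicle, 3 members of the SLC38 family and SLC1A3 rose with the combined treatment. SLC38A1 had 77.1, 71.6 and 79.3 TPM in LB amiodarone plus HPbCD, against 59.2, 51.4 and 55.1 TPM in LB DMSO. SLC38A2 had 261, 243 and 238 TPM in LB amiodarone plus HPbCD, against 193, 174 and 193 TPM in LB DMSO. SLC38A7 had 13.6, 13.99 and 15.1 TPM in LB amiodarone plus HPbCD, against 10.1, 9.16 and 9.72 TPM in LB DMSO. In all 3 the treated libraries lay above vehicle without overlap, and each rose (SLC38A1 log2 difference 0.45 ± 0.0865 SE, limma adjusted p = 0.00326, SLC38A2 log2 difference 0.41 ± 0.0736 SE, limma adjusted p = 0.00237, SLC38A7 log2 difference 0.52 ± 0.1 SE, limma adjusted p = 0.0037). SLC1A3 had 36.2, 40.9 and 46.7 TPM in LB amiodarone plus HPbCD, against 29.03, 24.7 and 34.5 TPM in LB DMSO. It rose too (log2 difference 0.48 ± 0.141 SE, limma adjusted p = 0.0337), a call lost without LB DMSO replicates 1 or 2 or LB amiodarone plus HPbCD replicates 2 or 3 (adjusted p 0.081 to 0.13), and with pseudocount 0.1 and with no filter on low values. With the drug alone SLC1A3 had 33.6, 28.9 and 41.2 TPM in LB amiodarone, overlapping LB DMSO (log2 difference 0.23, limma adjusted p = 0.376). The tested transporters that were not past the test had log2 differences of -0.25 to 0.33.

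Of the synthetases, VARS fell furthest in LB amiodarone plus HPbCD against LB DMSO. VARS had 52.7, 54.5 and 60.4 TPM in LB amiodarone plus HPbCD, against 72.4, 70.7 and 72.3 TPM in LB DMSO. HARS had 77.8, 78.6 and 75.6 TPM in LB amiodarone plus HPbCD, against 91.2, 92.5 and 86.6 TPM in LB DMSO. Both fell without overlap and held in every setting (VARS log2 difference -0.36 ± 0.0562 SE, limma adjusted p = 0.000921, HARS log2 difference -0.22 ± 0.0476 SE, limma adjusted p = 0.00773). When HPbCD was added to amiodarone, VARS gave -0.12 (limma adjusted p = 0.287) and HARS -0.02 (limma adjusted p = 0.878). QARS had 116, 116 and 107 TPM in LB amiodarone plus HPbCD, against 122, 143 and 137 TPM in LB DMSO. It fell (log2 difference -0.24 ± 0.0709 SE, limma adjusted p = 0.0361), a call lost without LB DMSO replicates 2 or 3 or LB amiodarone plus HPbCD replicates 1, 2 or 3 (adjusted p 0.0606 to 0.131), and with no filter on low values, with median-of-ratios scaling, without variance trend and with replicate block. DARS averaged 52.6 ± 3.47 TPM in LB amiodarone plus HPbCD and 44.0 ± 4.57 TPM in LB DMSO and rose (log2 difference 0.25 ± 0.0782 SE, limma adjusted p = 0.0414), a call lost without LB DMSO replicates 1 or 2, LB amiodarone replicates 2 or 3 or LB amiodarone plus HPbCD replicates 2 or 3 (adjusted p 0.0522 to 0.157), and with no filter on low values, with mitochondrially encoded genes removed, without variance trend and with the 2 groups fitted alone. NARS averaged 194 ± 13.6 TPM in LB amiodarone plus HPbCD and 173 ± 3.03 TPM in LB DMSO (limma adjusted p = 0.06) and WARS 161 ± 6.18 TPM in LB amiodarone plus HPbCD and 144 ± 6.15 TPM in LB DMSO (limma adjusted p = 0.0532), each above vehicle without overlap and short of the threshold. HARS2 and WDR55 overlap HARS on the opposite strand, the sources used here do not give the strand setting of the authors' counting, and reads of HARS and of these genes may not have been told apart.

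**Figure D4:**
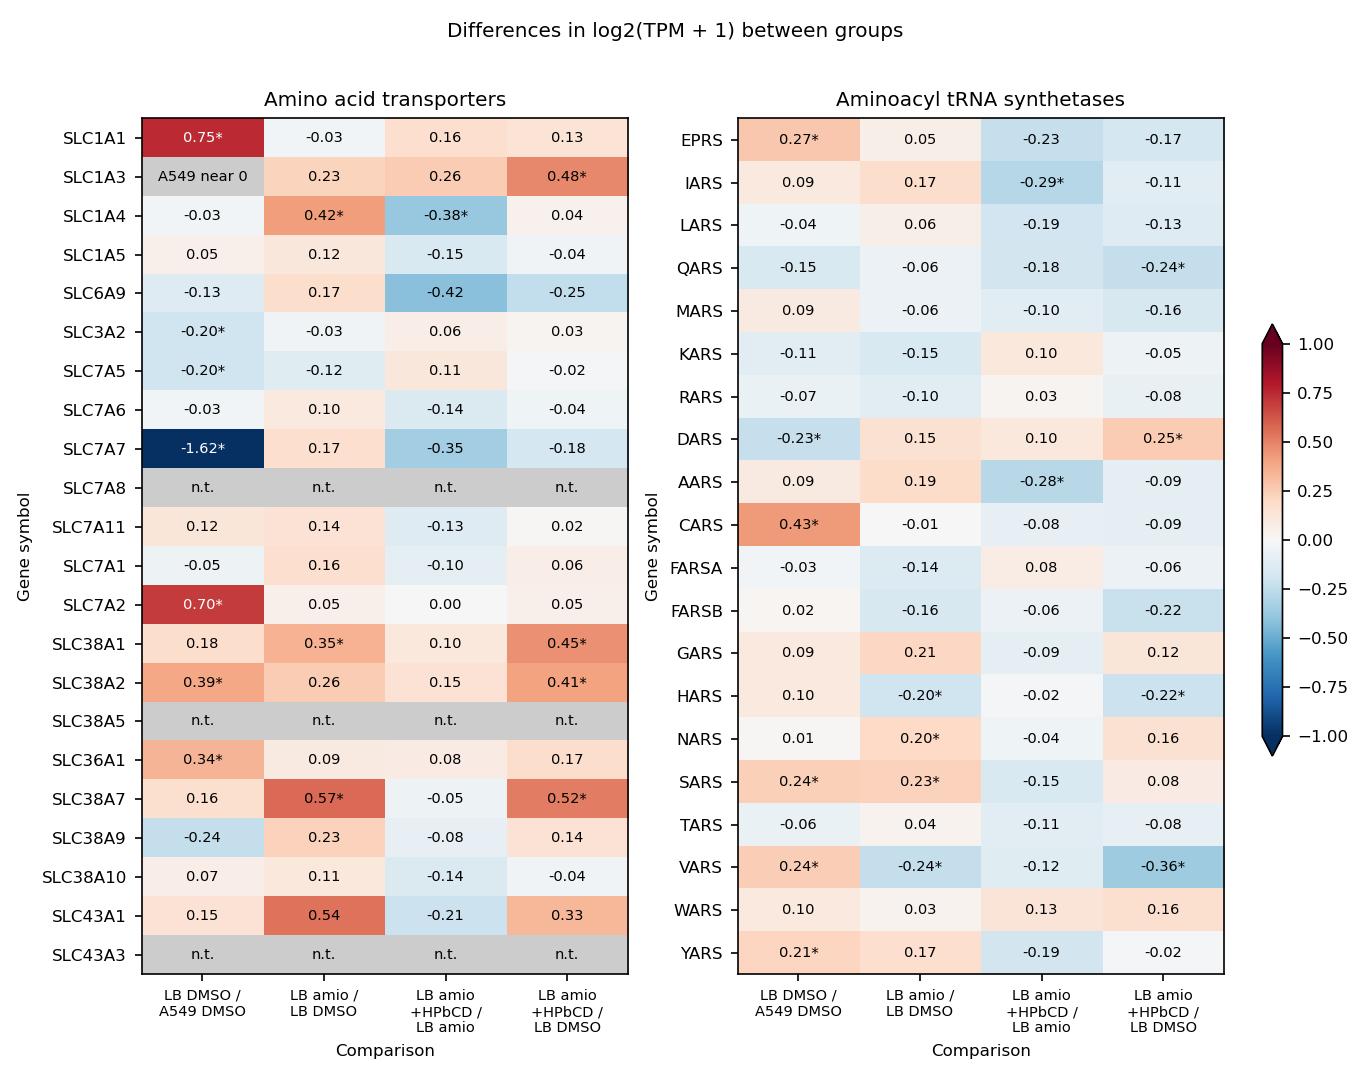
Difference in log2(TPM + 1), first-named group minus second, for each of the 22 transporters and 20 synthetases (rows) in the 4 comparisons (columns), "amio" being amiodarone. Colours run from -1 to 1, asterisks mark limma adjusted p under 0.05, grey cells (n.t.) were too low to be tested, and SLC1A3 has no value between the lines because it was near 0 in A549. The largest value shown, -1.62 for SLC7A7, is between the lines, while with treatment no member past the test moved by more than 0.57.

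The 3 transporters with a mean under 1 TPM were not tested. SLC43A3, a family member known to carry nucleobases, had 1.99, 2.35 and 2.12 TPM in LB amiodarone plus HPbCD, 0.71, 0.97 and 0.62 TPM in LB amiodarone, 0.59, 0.23 and 0.15 TPM in LB DMSO and 0.61, 0 and 0.13 TPM in A549 DMSO. Its highest values were those with HPbCD, and in the fit with no filter on low values it gave a log2 difference of 1.27 in LB amiodarone plus HPbCD against LB DMSO (limma adjusted p = 0.00212) and 0.84 against LB amiodarone (limma adjusted p = 0.06). SLC38A5, a sodium-coupled glutamine carrier, had 0.71, 0.74 and 0.88 TPM in LB amiodarone plus HPbCD, 0.28, 0.14 and 0.25 TPM in LB amiodarone, 0.55, 0.47 and 0.85 TPM in LB DMSO and 0.04, 0.44 and 0.26 TPM in A549 DMSO. All its values were low and were lowest in LB amiodarone and A549. SLC7A8, a light chain for neutral amino acids, stayed at or below 0.39 TPM.

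Carriers outside the 42 were drawn from a further list of 25, of which 10 were abundant enough to be tested. With amiodarone 4 of them rose and none fell (40%, where 8.62% of all tested genes passed and 4.9% rose), with a median of 0.23 where all tested genes had -0.0027. PQLC2, which exports cationic amino acids from the lysosome, had 21.1, 19.99 and 20.8 TPM in LB amiodarone, against 14.1, 14.5 and 12.8 TPM in LB DMSO. CTNS, the lysosomal cystine exporter, had 24.6, 22.9 and 23.9 TPM in LB amiodarone, against 18.4, 15.1 and 16.7 TPM in LB DMSO. Both lay higher with the drug in every library (PQLC2 log2 difference 0.55 ± 0.0739 SE, limma adjusted p = 0.000718, CTNS log2 difference 0.49 ± 0.115 SE, limma adjusted p = 0.022). SLC6A6, the taurine carrier, averaged 85.3 ± 5.996 TPM in LB amiodarone and 60.5 ± 3.35 TPM in LB DMSO (log2 difference 0.49, limma adjusted p = 0.000483). SLC38A6 averaged 27.4 ± 3.71 TPM in LB amiodarone and 17.5 ± 0.528 TPM in LB DMSO (log2 difference 0.61, limma adjusted p = 0.0223). The CTNS call was lost without LB DMSO replicates 2 or 3 or LB amiodarone replicates 1, 2 or 3 (adjusted p 0.0532 to 0.0857), and that of SLC38A6 without LB DMSO replicates 1, 2 or 3 or LB amiodarone replicates 2 or 3 (adjusted p 0.0562 to 0.0899). In LB amiodarone plus HPbCD against LB DMSO, 4 rose (PQLC2 0.69, SLC38A6 0.65, CTNS 0.60 and SLC6A6 0.56 on the log2 scale) and SLC43A2, a neutral amino acid carrier, fell (log2 difference -0.73, limma adjusted p = 0.000344), which is 50%, where 17.9% of all tested genes passed. When HPbCD was added to the drug, SLC43A2 was also the 1 of 10 past the test (log2 difference -0.46, limma adjusted p = 0.0232), a call lost without LB amiodarone replicates 2 or 3 or LB amiodarone plus HPbCD replicates 2 or 3 (adjusted p 0.0668 to 0.0956). Set beside SLC38A7, the lysosomal exporters PQLC2 and CTNS were higher with the drug, while SLC36A1 (0.09), SLC38A9 (0.23) and SLC15A4 (0.12), also of the lysosomal membrane, were not past the test (limma adjusted p = 0.707, 0.329 and 0.411). This grouping by organelle was made after the values were seen.

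Between the lines, 5 of these 10 carriers rose and 1 fell (60%, where 32.4% of all tested genes passed), or 4 and 1 of 9 without SLC6A14. SLC6A14, a carrier of neutral and cationic amino acids, had 4.49, 5.36 and 7.22 TPM in LB DMSO, against 0, 0 and 0.01 TPM in A549 DMSO, present in LB and listed at or near 0 in A549, so no fold or test is given. SLC3A1, the heavy chain of a cystine carrier, averaged 2.92 ± 0.433 TPM in LB DMSO and 5.57 ± 1.77 TPM in A549 DMSO and fell (log2 difference -0.72, limma adjusted p = 0.0172), a call lost without A549 DMSO replicate 1 or LB DMSO replicate 2 (adjusted p 0.0696 to 0.0708). Scaffold proteins of the multisynthetase complex and related factors changed little. Of 9 tested, XPOT, the tRNA exporter, rose between the lines (log2 difference 0.22, limma adjusted p = 0.0278), a call lost without A549 DMSO replicate 1 or LB DMSO replicates 1 or 3 (adjusted p 0.0908 to 0.104). None of the 9 passed the test in a treatment comparison by limma. Of them, 2, 1 and 1 had an unadjusted p under 0.05 with amiodarone, with HPbCD added, and with both against vehicle. Over all 13968 tested genes these counts were 3227, 2508 and 4450.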

How the data were processed

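RNA was sequenced from 12 libraries of LB and A549 cells, 3 in each of 4 groups defined by the line and treatment each label gives. Stranded mRNA libraries were made, per the labels' protocols. The authors deposited TPM per gene symbol, made with STAR 2.7.3a and RSEM 1.3.1 on GRCh38 per the submitters' processing notes, with an annotation release that the sources used here do not give. Of 57189 rows, 37 held no value. TPM keeps no depth, so no counting error can be given and no count model was used, and RSEM divides reads shared between near-identical genes by estimate.

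Values were transformed as log2(TPM + 1), the 13968 genes averaging 1 TPM or more across libraries were kept, and all 4 groups entered a single fit (limma 3.58.1, R 4.3.3) that used the mean-variance trend. The p-values are two-sided, with Benjamini-Hochberg adjustment over all tested genes in each of 4 comparisons and a threshold of 0.05. The members and related lists were chosen with earlier results of these data known, and no test was made over a list. All 42 symbols were found in GENCODE 29, the source of gene positions. Promoter windows came from RefSeq (GRCh38.p14).

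Values in every library were to be given for members past the test with a change of at least 1.5-fold, for ATF4 and for SLC7A11, SLC3A2, SLC7A5, SLC38A2, SLC1A5, SLC38A9, AARS, WARS, GARS, EPRS and QARS, and up to 4 genes of each related list per comparison could be named. Genes given by library beyond this (SLC1A4, SLC38A1, SLC38A5, SLC38A7, SLC43A3, IARS, SARS, VARS, YARS, NARS and HARS, and PQLC2, CTNS, SLC6A14, DDIT3, EIF2AK2, CEBPB and TFEB) were added after their values were seen. More than 4 genes of the amino acid sensing list are thus named where HPbCD was added. Results were recomputed with 0.1 or 5 as pseudocount, without the filter or with 5 TPM as its limit, after scaling by median of ratios, by quantiles or with mitochondrially encoded genes removed, by limma without trend or with robust variance, on the 2 groups alone, with a replicate block, and leaving out each library in turn.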

Additional observations from a re-analysis of the deposited data

How the results depend on the processing

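Of the 32 member changes past the test, none reversed in any of 23 alternative settings. The setting that cost most was leaving out LB DMSO replicate 2, which kept 19 of 32. With no filter on low values 23 of 32 were kept, without the variance trend 23, in fits of only the 2 groups compared 24, with median-of-ratios scaling 28, and with robust variance or a pseudocount of 5 all 32. Counts moved as follows, and the cause was not tested. In LB DMSO against A549 DMSO, transporters past the test numbered 5 in place of 8 with only the 2 groups compared, and 5 to 8 with 1 library left out, 5 without LB DMSO replicate 2 or 3. Of all tested genes, 26.9% passed with only the 2 groups compared, and 26.2% and 27.8% without LB DMSO replicates 2 and 3, in place of 32.4%. In LB amiodarone against LB DMSO, synthetases numbered 2 in place of 4 without the variance trend and 0 to 7 with 1 library left out. The count was 0 when LB DMSO replicate 2 was dropped, 1 when LB DMSO replicate 1 or LB amiodarone replicate 1 or 2 was, 2 when LB amiodarone replicate 3 was, and 7 when A549 DMSO replicate 2 was. The share of all tested genes was 5.33% without LB DMSO replicate 2 and 10.7% without A549 DMSO replicate 2, in place of 8.62%. In LB amiodarone plus HPbCD against LB amiodarone, transporters numbered 2 in place of 1 with quantile normalization, with mitochondrially encoded genes removed and with the replicate block, 0 with only the 2 groups compared, and 0 to 1 with 1 library left out, 0 without LB amiodarone replicate 2 or 3 or any LB amiodarone plus HPbCD library. Synthetases there numbered 6 in place of 2 with quantile normalization, 1 without the variance trend, and 1 to 2 with 1 library left out, 1 without LB amiodarone replicate 1 or 3 or any LB amiodarone plus HPbCD library. The share of all tested genes was 4.18% with quantile normalization and 3.14% without the variance trend, in place of 4.07%. It was 2.02% to 2.44% without any 1 LB amiodarone or LB amiodarone plus HPbCD library. In LB amiodarone plus HPbCD against LB DMSO, synthetases numbered 2 in place of 4 with no filter or without the variance trend, and 2 to 7 with 1 library left out, reaching 7 when A549 DMSO replicate 2 was dropped and 2 when LB amiodarone plus HPbCD replicate 2 was. Of all tested genes, 7.01% passed with no filter and 16.6% without the variance trend, in place of 17.9%. Without A549 DMSO replicate 2 it was 20.3%, and without LB amiodarone plus HPbCD replicate 2 14.2%. Same-numbered libraries deviated from their group means with correlations of -0.0273 to 0.212, not all above 0.1, and not every library correlated best with its own number, so replicate numbers were not taken to pair the samples. With the replicate block 31 of the 32 changes were kept, QARS in LB amiodarone plus HPbCD against LB DMSO being lost, and 14, 10, 4 and 10 members passed the test in place of 14, 7, 3 and 8, in the order of the 4 comparisons above. The median of all tested genes moved by less than 0.1 on the log2 scale under the 3 other scalings. TPM gives no depth, so what counting error limits is unknown. With 3 libraries a group, a miss of the threshold does not show that levels were equal.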

Other observations

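Among genes of amino acid sensing and the GCN2-ATF4 arm, the changes past the test with amiodarone were all increases, while 17 of 28 lay above 0. Of 28 tested genes of amino acid sensing and the GCN2-ATF4 arm, 10 rose and none fell (median log2 difference 0.15, with -0.0027 over all tested genes), where 4.9% of all tested genes rose. RRAGD, a Rag GTPase that recruits mTORC1 to the lysosome, averaged 20.8 ± 2.10 TPM in LB amiodarone and 6.94 ± 0.325 TPM in LB DMSO (log2 difference 1.45 ± 0.107 SE, limma adjusted p = 3.26e-06). RRAGC, another Rag GTPase, averaged 23.7 ± 1.34 TPM in LB amiodarone and 13.4 ± 0.439 TPM in LB DMSO (log2 difference 0.77 ± 0.0732 SE, limma adjusted p = 3.54e-05). TRIB3, a pseudokinase induced by ATF4, averaged 259 ± 3.65 TPM in LB amiodarone and 98.9 ± 6.29 TPM in LB DMSO (log2 difference 1.38 ± 0.0464 SE, limma adjusted p = 2.13e-09). RRAGD, RRAGC and TRIB3 held with any single library left out. DDIT3 (CHOP, a stress-induced transcription factor) had 49.4, 49.2 and 48.7 TPM in LB amiodarone, against 24.1, 24.8 and 22.5 TPM in LB DMSO. When HPbCD was added, 5 of the 28 rose and 3 fell, where 2.71% of all tested genes rose and 1.36% fell. RRAGD averaged 31.5 ± 2.55 TPM in LB amiodarone plus HPbCD and 20.8 ± 2.10 TPM in LB amiodarone (log2 difference 0.58 ± 0.107 SE, limma adjusted p = 0.00999), a call lost without LB amiodarone plus HPbCD replicate 3 (adjusted p 0.0534). DDIT3 (CHOP, a stress-induced transcription factor) averaged 67.1 ± 1.09 TPM in LB amiodarone plus HPbCD and 49.1 ± 0.352 TPM in LB amiodarone (log2 difference 0.44 ± 0.0713 SE, limma adjusted p = 0.00451). ASNS, asparagine synthetase and a known ATF4 target, averaged 86.6 ± 6.20 TPM in LB amiodarone plus HPbCD and 134 ± 4.90 TPM in LB amiodarone and fell (log2 difference -0.62 ± 0.0582 SE, limma adjusted p = 7.19e-05), having risen with amiodarone alone (log2 difference 0.39, limma adjusted p = 0.00153). ASNS, IARS, AARS and SLC1A4 thus fell when HPbCD was added, while DDIT3 rose, and a part of ATF4 in these changes was not tested. In LB DMSO against A549 DMSO 13 of the 28 rose and 2 fell, where 14.2% of all tested genes rose and 18.2% fell. Of the same 28, 11 rose and 2 fell in LB amiodarone plus HPbCD against LB DMSO, where 10.1% and 7.81% did.

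Most mitochondrial synthetases lay below vehicle after treatment. Of 17 tested, 2 fell and none rose with amiodarone (11.8%, where 8.62% of all tested genes passed, median -0.19, 2 of 17 above 0). In LB amiodarone plus HPbCD against LB DMSO 4 fell and 1 rose (29.4%, where 17.9% of all tested genes passed, median -0.16, 3 of 17 above 0). VARS2 averaged 8.21 ± 1.10 TPM in LB amiodarone plus HPbCD and 12.7 ± 0.621 TPM in LB DMSO and fell (log2 difference -0.57 ± 0.108 SE, limma adjusted p = 0.00298). SARS2 averaged 47.5 ± 2.26 TPM in LB amiodarone plus HPbCD and 65.1 ± 2.85 TPM in LB DMSO and fell (log2 difference -0.45 ± 0.0874 SE, limma adjusted p = 0.00392). CARS2 rose there (log2 difference 0.51 ± 0.0949 SE, limma adjusted p = 0.00297). With amiodarone, TARS2 fell (log2 difference -0.21, limma adjusted p = 0.0327), a call lost without any 1 of the LB DMSO or LB amiodarone libraries (adjusted p 0.0513 to 0.125). HARS2 fell too (log2 difference -0.19, limma adjusted p = 0.0465), a call lost without any 1 library other than A549 DMSO replicate 2 (adjusted p 0.0506 to 0.154). Between LB DMSO and A549 DMSO 3 rose and 3 fell (35.3%, close to the 32.4% of all tested genes). No mitochondrial synthetase passed the limma threshold when HPbCD was added to amiodarone. There 3 of the 17 had an unadjusted p under 0.05, as did 2508 of all 13968 tested genes.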
